A study of Mus musculus with 6 samples.

Results

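The 10 genes described here encode molecular chaperones of the cytosol and the mitochondrion, together with the co-chaperones that steer them. They are Hspa8, Hspa1a and Hspa1b of the HSP70 family, Hsph1 of the HSP110 family, the J-domain genes Dnajb1 and Dnaja1, the HSP70 co-chaperone Bag3, the HSP90 gene Hsp90aa1, and the mitochondrial chaperonin pair Hspd1 and Hspe1. They were chosen by name, as the genes of the deposited table whose symbol is one of these 10, and all 10 were found among its 25124 genes. All 10 also reached 1 TPM in at least 3 libraries, the filter that left 11235 genes to be tested. TPM is a level scaled for transcript length and for sequencing depth, so that levels of different genes can be set side by side.

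Messenger RNA had been sequenced from bone marrow-derived macrophages (BMDM) of wild-type C57BL/6 mice of 8 weeks of age. M2 cells (3 libraries) were grown from marrow for 7 days with 20 ng/ml macrophage colony-stimulating factor (M-CSF) and then kept for 4 h in 20 ng/ml M-CSF to which 10 ng/ml IL-4 had been added; IL-4 (interleukin-4) is the T helper cytokine known for turning macrophages to alternative activation. M0 cells (3 libraries) were grown in the same way and then kept for those 4 h in 20 ng/ml M-CSF alone. No allele, transgene, heat or other treatment is named in the labels for either group. The labels do not say whether the 3 libraries of a group came from separate mice or cultures, so the p-values measure only the spread between these libraries, which may be technical. The comparison of M2 with M0 asks which of these transcripts differ after 4 h of IL-4.

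HSP70 proteins bind and release unfolded stretches of other proteins in a cycle driven by ATP. J-domain proteins deliver the clients and speed ATP hydrolysis, and HSP110 and BAG proteins exchange the nucleotide so that the client is let go. HSP90 takes over late folding steps of kinases and receptors, and the HSP60 and HSP10 proteins form the folding chamber of the mitochondrial matrix. Some of these genes, such as Hspa8, are active in nearly all cells, whereas Hspa1a and Hspa1b are the classical genes that heat shock factor 1 (HSF1) switches on in stressed cells. HSF1 binds heat shock elements, runs of the unit GAA in alternating orientation.

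The sequences before the start sites of 5 of these genes are shown. They belong to genes that lie in pairs and to Hsph1, and were chosen because the results turn on these genes. The values of each pair are given side by side further on. Dnaja1 also holds a pair of units before its start and is not shown. The sequences are from RefSeq, build GRCm38.p6, from the strand of the gene named, with the matched units in capitals. Hspd1 and Hspe1 lie back to back on chromosome 1 with 215 bases between their starts, and the stretch at chr1:55088053-55088082, given on the strand of Hspe1, holds 4 units in a row.
Hspd1 and Hspe1: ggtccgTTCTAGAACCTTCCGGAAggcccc
Hspa1a and Hspa1b are single-exon genes that lie 10120 bases apart on the minus strand of chromosome 17. The stretches from base -150 to base -30, counted from their starts, at chr17:34972186-34972306 for Hspa1a and chr17:34959268-34959388 for Hspa1b, hold the same 121 letters, with a pair of facing units in capitals.
Hspa1a and Hspa1b: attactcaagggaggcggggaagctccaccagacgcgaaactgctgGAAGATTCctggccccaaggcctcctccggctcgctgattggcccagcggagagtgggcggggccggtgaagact
Hsph1 lies on the minus strand of chromosome 5, and the stretch at chr5:149636351-149636380 holds a pair of units pointing away from each other. The pair lies before the start of the transcript counted here and inside the first exon of another annotated Hsph1 transcript (positions 149636320 to 149636376).
Hsph1: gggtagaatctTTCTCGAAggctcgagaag

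A window from 250 bases before to 50 bases after the start was searched on both strands in 8 of the 10 genes, those with a matching entry. Hspa8 and Hsp90aa1 had none. Only exact units were matched, so elements with a changed letter or outside the window would be missed. The 3-unit element GAANNTTCNNGAA, which contains both of the 2-unit forms searched, was found in Hspd1, Hspe1 and Hsph1. In Hspd1 and Hspe1 it is the stretch printed above, with 2 overlapping matches, starting at base -89 of Hspe1 and at base -144 of Hspd1. That stretch also lies in the first exon of another annotated Hspd1 transcript (positions 55087989 to 55088243). In Hsph1 the match TTCTGGAAAGTTC lies inside the transcript, at bases 37 to 49 (chr5:149636288-149636300). Of 32851 promoter windows of the same length in the table, 198 (0.603%) held this element. The facing form GAANNTTC, present in 7.86% of windows, was also found alone in Hspa1a and Hspa1b (at base -104, counted from the start), Dnaja1 (at base -124) and Bag3 (at base 43 of the transcript). The form TTCNNGAA was present in 8.52% of windows. Dnajb1 held neither form. The letters CCAAT, on either strand, lay at bases -151 and 12 of Dnajb1 and at base -67 of Hspa1a and Hspa1b. They also lay at bases -116 and -47 of Hsph1, and 37.4% of windows held them at any place. TATAAA, present in 13.6% of windows, was found in none of the 8. Over the 250 bases before the start, Hspa1a and Hspa1b shared 247 (98.8%). The 3 differences, counted from 1 at the base farthest from the start and given from Hspa1a to Hspa1b, were C44T, T47C and T249G.

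The libraries held 16913185 to 19019896 reads in genes, and 1 read in a 1-kb transcript was worth 0.0610 to 0.0700 TPM. The 10 genes had 700 to 15738 reads each in a library. M0 replicate 2 stood apart from the other M0 libraries, its chi-square over genes, divided by the degrees of freedom, being 9.05 and 10.2 against them, compared with 2.24 between M0 replicates 1 and 3, 1.52 to 1.70 among M2 libraries and 113 to 138 between groups. The IL-4 response genes rose in 8 of 8 cases, among them Arg1 with 1009 ± 7.40 TPM in M2 and 1.55 ± 0.328 TPM in M0 (SD, n = 3 each). The 8 macrophage markers summed to 15189 to 15567 TPM in M2 libraries and 16395 to 17546 TPM in M0 libraries. Markers of 7 other cell types were low. Of these, T and NK cell, dendritic cell, mast cell and basophil, and erythroid markers had no gene that passed the filter. Dendritic cell markers summed to 1.37 to 1.52 TPM in M2 and 0.436 to 0.657 TPM in M0, and the other 3 lists to at most 0.240 TPM in M2 and 0.345 TPM in M0. Cd8a, Mcpt8, Tpsb2, Prss34, Hbb-bs, Hbb-bt, Hba-a1 and Hba-a2 were at 0 in every library. Summed B cell markers were 1.10 to 1.58 TPM in M2 and 1.85 to 1.98 TPM in M0, with 1 of 1 tested gene lower. Fibroblast and stromal markers were 7.63 to 8.27 TPM in M2 and 9.81 to 10.4 TPM in M0, with 2 of 2 tested genes lower. Neutrophil markers were 27.6 to 34.7 TPM in M2 and 29.7 to 37.5 TPM in M0, with none of 4 passing the test. The part of these cells in the results was not tested.

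Across the 10 genes, 1 was higher in M2 and 5 were lower, and 4 did not pass (limma-trend on log2 of TPM plus 1, Benjamini-Hochberg adjusted p under 0.05). Hsph1 rose, and Hspa8, Hspa1a, Hspa1b, Hsp90aa1 and Hspd1 fell. Of all 11235 genes tested, 17.7% were called higher and 45.3% lower in M2, so that 5 of 10 lower is near the share of all genes. The median log2 fold change was -0.18 over the 10 genes and -0.15 over all genes tested. Each library was also divided by its median ratio to the others (factors of 0.941 to 0.945 in M2 and 1.05 to 1.09 in M0). This moved the median of all genes by 0.15 to 0.00, and the changes of the 10 genes are therefore also given relative to it. Changes of other genes are on deposited TPM unless median scaling is named, and so include this shift. On that median-scaled TPM, Hsph1 remained higher, Hsp90aa1 and Hspd1 remained lower, and 7 genes did not pass, with a median over the 10 of -0.01. There 28.8% of all genes were called higher and 28.2% lower. In bulk RNA such as this, a lower level in every cell and fewer cells that carry the transcript cannot be told apart.

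**Figure D1:**
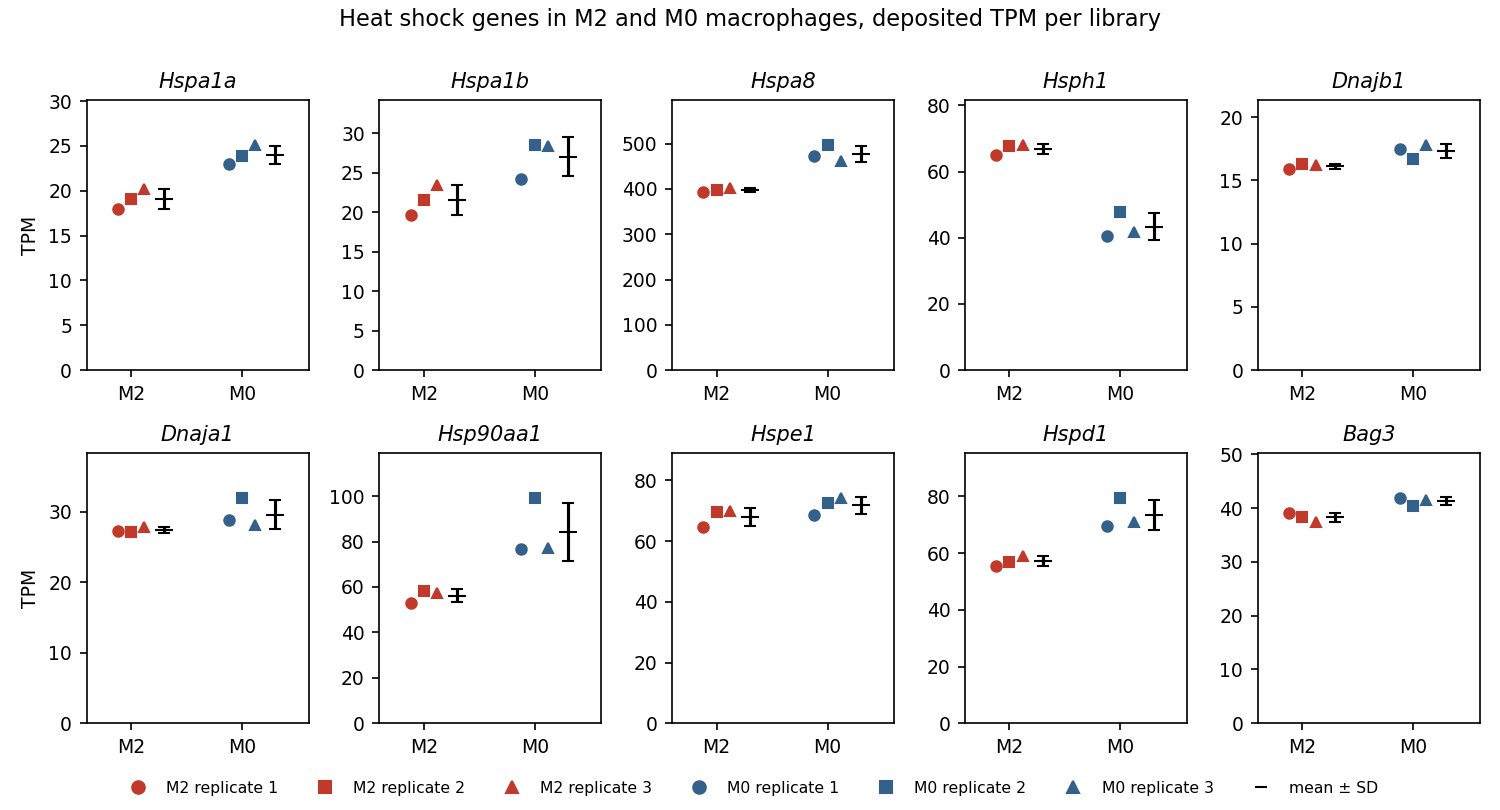
Deposited TPM of each heat shock gene in the 3 M2 libraries (red, left) and the 3 M0 libraries (blue, right), with one marker shape per replicate number and the mean ± SD in black; each vertical axis starts at 0. Hsph1 is the gene whose M2 libraries (65.1 to 68.0 TPM) all lie above its M0 libraries (40.5 to 47.9 TPM), and M0 replicate 2 is the highest library of Hsp90aa1 at 99.0 TPM.

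Hspa8 (NM_031165, mm10 chromosome 9, positions 40801276 to 40805202, 9 exons) encodes HSC70, the HSP70 protein that cells make at all times. It was by far the most abundant of the 10, with 394, 397 and 403 TPM in the M2 libraries and 472, 497 and 462 TPM in the M0 libraries. All M2 libraries lay below all M0 libraries. The mean was 398 ± 4.82 TPM in M2 and 477 ± 17.9 TPM in M0 (SD, n = 3 each), a ratio of 0.835. The log2 fold change was -0.26 (SE 0.04, adjusted p = 2.1e-04, limma-trend). On median-scaled TPM it was -0.09 and did not pass (adjusted p = 0.066, limma-trend), although the libraries still did not overlap between groups. On reads recovered from the TPM it was also -0.09 and passed (adjusted p = 0.037, limma-voom). The size of the change thus depends on the scaling, and the call lies near the threshold once libraries are rescaled. Hspa8 stood at the 98.4th percentile of tested genes by mean TPM in M2 and at the 98.8th in M0. It made up 51.8% ± 0.528 of the summed TPM of the 10 genes in M2 and 53.7% ± 0.904 in M0.

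Hspa1a and Hspa1b encode nearly the same protein, the stress-inducible HSP70. Hspa1a (NM_010479, mm10 chromosome 17, positions 34969359 to 34972156) had 18.0, 19.1 and 20.2 TPM in M2 and 23.0, 23.9 and 25.1 TPM in M0. Hspa1b (NM_010478, positions 34956429 to 34959238) had 19.7, 21.5 and 23.5 TPM in M2 and 24.2, 28.5 and 28.4 TPM in M0. Both were thus present without any heat treatment named in the labels, and in neither gene did the groups overlap. Hspa1a fell by 0.32 on the log2 scale (SE 0.06, adjusted p = 0.0012, limma-trend), with means of 19.1 ± 1.09 TPM in M2 and 24.0 ± 1.05 TPM in M0. Hspa1b fell by 0.31 (SE 0.08, adjusted p = 0.0065, limma-trend), with means of 21.6 ± 1.87 TPM in M2 and 27.0 ± 2.43 TPM in M0. On median-scaled TPM both stood at -0.15, with adjusted p = 0.053 for Hspa1a and 0.14 for Hspa1b, whose libraries then overlapped between groups.

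The 2 genes share 58.8% of the 50-base stretches of the Hspa1a transcript and 62.3% of those of Hspa1b, and how reads that fit both were counted is not given in the sources used here. The sum of both was 37.7, 40.6 and 43.6 TPM in M2 and 47.3, 52.4 and 53.5 TPM in M0, a ratio of means of 0.796. All M2 libraries lay below all M0 libraries. After median scaling the sum was 40.1, 43.0 and 46.2 TPM in M2 and 44.9, 48.0 and 51.1 TPM in M0, and the groups overlapped. An exon of Gm20481 also overlaps Hspa1a on the opposite strand by 377 bases, and whether counting used the strand is not stated. Set against Hspa8 within each library, the summed inducible pair came to 0.0957, 0.102 and 0.108 in M2 and 0.10, 0.106 and 0.116 in M0. These ratios overlapped between groups (log2 difference -0.07, exact permutation p = 0.50, two-sided, adjusted p = 0.50 over 4 ratios).

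Hsph1 encodes HSP105, a member of the HSP110 family that acts as a nucleotide exchange factor of HSP70. It was the only one of the 10 that rose. It had 65.1, 67.6 and 68.0 TPM in M2 and 40.5, 47.9 and 41.6 TPM in M0, so that the lowest M2 library was well above the highest M0 library. The means were 66.9 ± 1.58 TPM in M2 and 43.3 ± 3.99 TPM in M0, a ratio of 1.54. The log2 fold change was 0.62 (SE 0.06, adjusted p = 1.4e-05, limma-trend) and 0.79 on median-scaled TPM (adjusted p = 1.9e-06). By mean TPM Hsph1 stood at the 87.8th percentile of tested genes in M2 and at the 79.6th in M0. In the authors' deposited table of the comparison its log2 fold change was 0.80 (adjusted p = 9.2e-37). That table counted another transcript of the gene (3458 bases) than the TPM table (NM_001347534, chromosome 5, positions 149616845 to 149636336, 17 exons, 3348 bases). None of its 50-base stretches occurs in a transcript of another annotated gene.

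Within each library, Hsph1 stood at 0.165, 0.170 and 0.169 of the Hspa8 level in M2 and at 0.0858, 0.0964 and 0.0901 in M0. The log2 ratio was 0.89 higher in M2. This ratio is free of the scaling between libraries. An exact permutation test over libraries gave p = 0.10 (two-sided, adjusted p = 0.13 over 4 ratios), and 0.10 is the smallest p that 3 libraries against 3 allow.

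**Figure D2:**
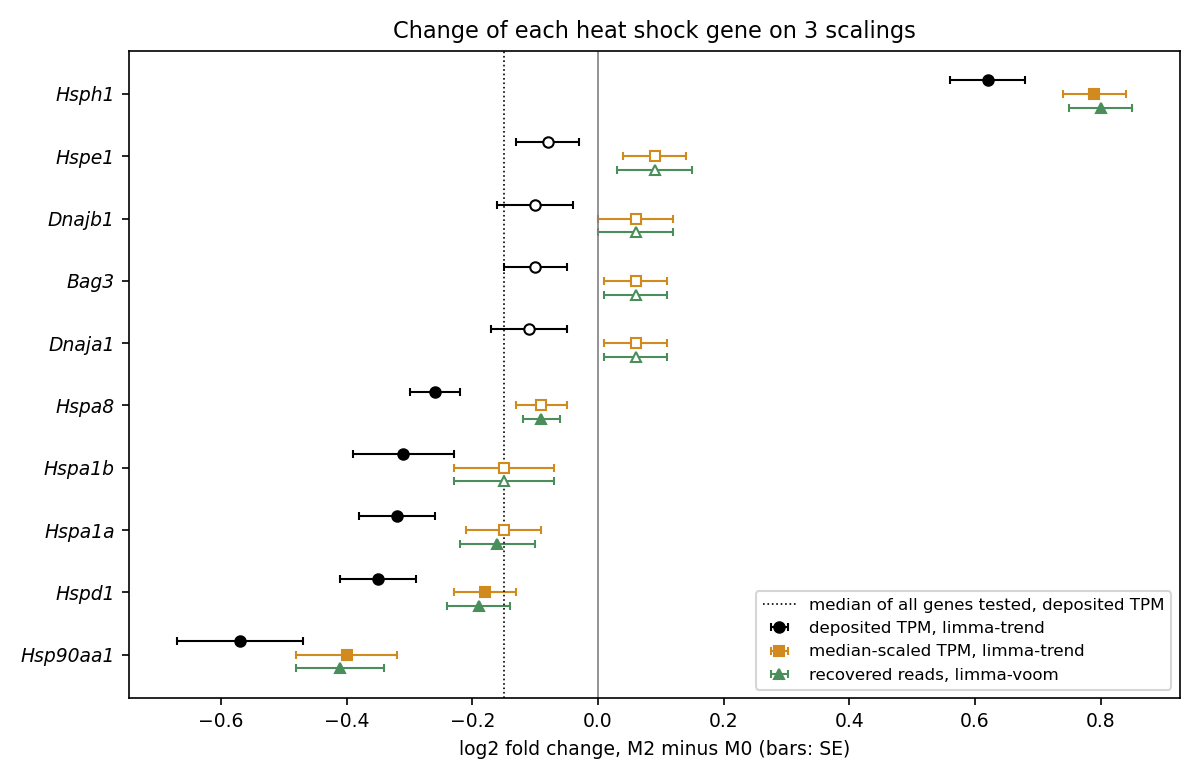
Log2 fold change (M2 minus M0) of each heat shock gene with its SE, from deposited TPM (black circles), median-scaled TPM (orange squares) and recovered reads (green triangles); filled symbols passed at an adjusted p under 0.05, and the dotted line is the median of all genes tested on deposited TPM (-0.15). Hsph1 lies at 0.62 to 0.80, Hsp90aa1 at -0.57 to -0.40, and Hspe1, Dnajb1, Bag3 and Dnaja1 lie on either side of 0 depending on the scaling.

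The J-domain genes did not pass the test. Dnajb1 (chromosome 8, positions 83608175 to 83612653, 3 exons), which encodes the stress-inducible HSP40 partner of HSP70, had 15.9, 16.3 and 16.2 TPM in M2 and 17.5, 16.7 and 17.8 TPM in M0. Dnaja1 (chromosome 4, positions 40722468 to 40734965, 9 exons), which encodes a type I J-domain protein of the cytosol, had 27.2, 27.1 and 27.9 TPM in M2 and 28.8, 31.9 and 28.1 TPM in M0. In both genes the M2 libraries lay below the M0 libraries, by little. The log2 fold change was -0.10 (SE 0.06) for Dnajb1 and -0.11 (SE 0.06) for Dnaja1, with an adjusted p of 0.14 for both (limma-trend), and both turned to 0.06 on median-scaled TPM. Without M0 replicate 2, the library with the lowest Dnajb1 and the highest Dnaja1 of its group, Dnajb1 passed on deposited TPM with -0.12 (adjusted p = 0.031, limma-trend). The ratio of Dnajb1 to Hspa8 was 0.0403, 0.0410 and 0.0401 in M2 and 0.0371, 0.0337 and 0.0385 in M0. It did not overlap between groups (log2 difference 0.15, exact permutation p = 0.10, two-sided, adjusted p = 0.13).

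Bag3 (chromosome 7, positions 128523583 to 128546979, 4 exons) encodes a BAG-domain co-chaperone that links HSP70 to the autophagy of damaged proteins. It had 39.1, 38.4 and 37.4 TPM in M2 and 41.8, 40.4 and 41.5 TPM in M0. The groups lay close together without overlap, and the spread within each was small (SD 0.832 TPM in M2 and 0.721 TPM in M0). The log2 fold change was -0.10 (SE 0.05, adjusted p = 0.07, limma-trend) and 0.06 on median-scaled TPM (adjusted p = 0.28), so that its direction depends on the scaling. Without M0 replicate 2 it passed on deposited TPM with -0.12 (adjusted p = 0.018, limma-trend).

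Hsp90aa1 (NM_010480, chromosome 12, positions 110691036 to 110696395, 11 exons) encodes the inducible HSP90 alpha. It had 52.8, 58.2 and 57.2 TPM in M2 and 76.6, 99.0 and 77.1 TPM in M0. M0 replicate 2 was far above the other M0 libraries, which in turn were all above the M2 libraries. The means were 56.1 ± 2.87 TPM in M2 and 84.2 ± 12.8 TPM in M0, a ratio of 0.666. It fell by 0.57 on the log2 scale (SE 0.10, adjusted p = 8.0e-04, limma-trend) and stood at -0.40 on median-scaled TPM (adjusted p = 0.003). Without M0 replicate 2 it stood at -0.45 on deposited TPM (adjusted p = 5.1e-05, limma-trend). On median-scaled TPM it then stood at -0.30 (adjusted p = 5.5e-04, limma-trend). In the authors' deposited table the log2 fold change was -0.41 (adjusted p = 7.6e-07). Hsp90ab1, the constitutive HSP90 beta gene, which is not one of the 10, was far more abundant with 565 ± 7.18 TPM in M2 and 622 ± 14.5 TPM in M0. Its log2 fold change was -0.14 (adjusted p = 0.0052, limma-trend) on deposited TPM and 0.03 (adjusted p = 0.45) on median-scaled TPM.

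Hspd1 and Hspe1 encode HSP60, the wall of the mitochondrial folding chamber, and HSP10, its lid. Hspd1 (NM_010477, chromosome 1, positions 55077834 to 55087932, minus strand, 12 exons) had 55.5, 57.0 and 58.9 TPM in M2 and 69.6, 79.3 and 71.1 TPM in M0. Hspe1 (NM_008303, positions 55088148 to 55091317, plus strand, 4 exons) had 64.5, 69.5 and 69.8 TPM in M2 and 68.6, 72.7 and 74.1 TPM in M0. The groups were apart for Hspd1 and overlapped for Hspe1. Hspd1 fell by 0.35 on the log2 scale (SE 0.06, adjusted p = 3.5e-04, limma-trend) and stood at -0.18 on median-scaled TPM (adjusted p = 0.011), with means of 57.2 ± 1.69 TPM in M2 and 73.3 ± 5.22 TPM in M0. Hspe1 had means of 68.0 ± 2.97 TPM in M2 and 71.8 ± 2.84 TPM in M0 and did not pass, with -0.08 (adjusted p = 0.2, limma-trend) on deposited TPM and 0.09 (adjusted p = 0.15) on median-scaled TPM.

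These neighbours share the stretch with the 4 units printed above, and are also compared here by their ratio. The ratio of Hspe1 to Hspd1 was 1.16, 1.22 and 1.18 in M2 and 0.986, 0.917 and 1.04 in M0. Every M2 library was above every M0 library, by 0.28 on the log2 scale (exact permutation p = 0.10, two-sided, adjusted p = 0.13). M0 replicate 2 had the lowest ratio, and without it the difference was 0.23. Hspe1 is short (762 bases), an exon of another Hspd1 transcript overlaps it on the opposite strand by 112 bases, and 44.8% of the 50-base stretches of each of the 2 transcripts also occur in transcripts of other genes, among them Hspd1-ps3, which holds 42.8% of those of Hspd1. The part of these in the ratio was not tested.

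**Figure D3:**
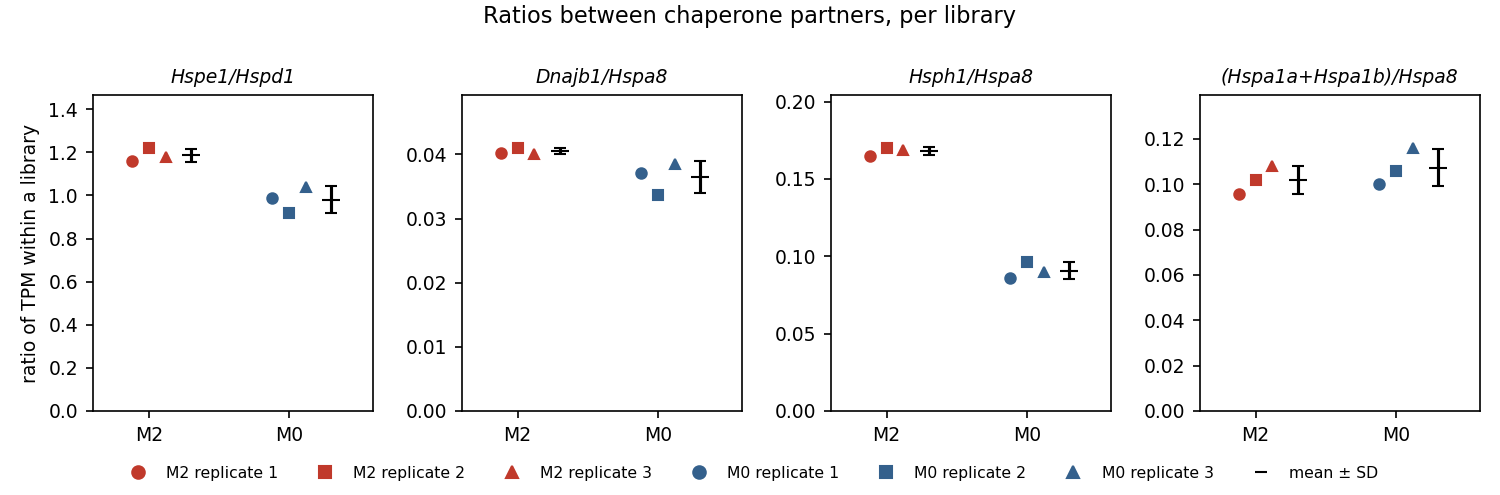
Ratio of TPM between chaperone partners within each library, M2 (red, left) and M0 (blue, right), with the mean ± SD in black; each vertical axis starts at 0. Hspe1/Hspd1, Dnajb1/Hspa8 and Hsph1/Hspa8 do not overlap between groups, with log2 differences of 0.28, 0.15 and 0.89, whereas the summed Hspa1a and Hspa1b relative to Hspa8 overlap (-0.07).

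The order of levels shifted in the middle of the list. In M2 it ran Hspa8 (398 TPM), Hspe1 (68.0), Hsph1 (66.9), Hspd1 (57.2), Hsp90aa1 (56.1), Bag3 (38.3), Dnaja1 (27.4), Hspa1b (21.6), Hspa1a (19.1) and Dnajb1 (16.1). The ranges over libraries overlapped between Hspe1 and Hsph1, between Hspd1 and Hsp90aa1, and between Hspa1b and Hspa1a. In M0 it ran Hspa8 (477 TPM), Hsp90aa1 (84.2), Hspd1 (73.3), Hspe1 (71.8), Hsph1 (43.3), Bag3 (41.2), Dnaja1 (29.6), Hspa1b (27.0), Hspa1a (24.0) and Dnajb1 (17.3). There the ranges overlapped between Hsp90aa1 and Hspd1, Hspd1 and Hspe1, Hsph1 and Bag3, Dnaja1 and Hspa1b, and Hspa1b and Hspa1a. Hsp90aa1 thus held rank 5 in M2 and rank 2 in M0, and Hsph1 rank 3 in M2 and rank 5 in M0. Levels of Hspa8, Hspa1a, Hspa1b, Hsp90aa1, Hspe1, Hspd1 and Dnaja1 carry the limit that 30.6% (Dnaja1) to 74.8% (Hspa8) of their 50-base stretches occur in other annotated transcripts, against 0.441% for Dnajb1 and none for Bag3 and Hsph1. The 10 genes together had 752, 772 and 783 TPM in M2 and 863, 937 and 867 TPM in M0. On deposited TPM all M2 libraries lay below all M0 libraries, with a ratio of means of 0.865. On median-scaled TPM the sums were 799, 817 and 828 in M2 and 820.1, 858 and 828 in M0. There the groups overlapped, with a ratio of means of 0.975.

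On other scalings Hsph1 was the gene called higher each time, and the number called lower changed. On reads recovered from the TPM, limma-voom called 4 of the 10 lower, namely Hspa8, Hspa1a, Hsp90aa1 and Hspd1, beside 29.1% of all genes higher and 29.3% lower. Hspa1a reached an adjusted p of 0.043 there and Hspa8 of 0.037. In the authors' deposited table, one of the 10 had an adjusted p under 0.05 and a higher value in M2 and 2 a lower one, Hsp90aa1 and Hspd1, beside 25.8% of all tested genes higher and 25.8% lower. By deposited TPM the libraries of the groups did not overlap for 9 of the 10 genes, 1 higher and 8 lower in M2, beside 69.4% of all tested genes in either direction. After median scaling they did not overlap for 1 gene that was higher and 4 that were lower (Hspa8, Hspa1a, Hsp90aa1 and Hspd1), beside 64.9% of all tested genes.

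Replicate spread differed between the groups and the genes. On deposited TPM, M0 replicate 2 was the highest M0 library for 6 of the 10 genes. It lay above the mean of the other M0 libraries by 0.36 on the log2 scale for Hsp90aa1 and 0.22 for Hsph1. The difference was 0.17 for Hspd1, 0.16 for Dnaja1 and -0.07 for Dnajb1. After median scaling these differences were 0.30, 0.16, 0.11, 0.11 and -0.13 in the same order. The scaling factor was 1.09 for this library and 1.05 for M0 replicates 1 and 3. The coefficient of variation of Hsp90aa1 was 5.11% in M2 and 15.2% in M0, where counting alone would give 2.02% in M2 and 1.67% in M0. That of Dnajb1 was 1.26% in M2 and 3.18% in M0, below the 3.67% and 3.59% that counting alone would give. In M2, replicate 3 was the highest for 7 of the 10 genes and replicate 1 the lowest for 8. The shares of all genes with the same highest or lowest library were not counted, so these counts describe the 10 genes only. Without M0 replicate 2 the Hsph1 log2 fold change was 0.69 and the same direction held for each of the 10 genes.

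The genes whose profile over the 6 libraries lay nearest to Hspa1a, by the root mean square difference of centred log2 values, were Cops3 (0.022), Dcun1d5 (0.026) and Mkrn2 (0.029), with Pearson r of 0.99 for all 3. Nearest to Hspd1 were Ccp110 (0.014), Serbp1 (0.016) and Gxylt1 (0.017), with r of 1.00 for all 3. Ccp110 was low, with 1.21 ± 0.0747 TPM in M2 and 1.84 ± 0.202 TPM in M0. The log2 of TPM plus 1 understates the change of so low a gene, so its fold change is not that of Hspd1. These correlations are across 6 libraries that fall into 2 groups. None of the 6 genes is among the 10 or in the chaperone lists below.

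Lists of other chaperones and heat-inducible genes place the 10 among their partners. In 9 such lists with 95 genes, 83 were tested, 6 were called higher and 48 lower in M2 (limma-trend on deposited TPM), beside 17.7% of all genes higher and 45.3% lower. The median log2 fold change was -0.29, against -0.15 over all genes. On median-scaled TPM 13 were higher and 38 lower, beside 28.8% of all genes higher and 28.2% lower, with a median of -0.11 against 0.00. The same shares of all genes stand beside the counts of the single lists that follow. Without M0 replicate 2 there were 6 higher and 49 lower. The lists were drawn up with earlier results of these data known, so their counts are a description.

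Of the HSP70 and HSP110 relatives 5 of 8 were tested and 3 fell. Hspa4, which encodes the HSP110-family protein APG-2, had 66.9 ± 1.39 TPM in M2 and 82.9 ± 5.97 TPM in M0 (log2 fold change -0.30, adjusted p = 8.4e-04, limma-trend), and so stood on the other side of 0 from Hsph1 of the same family. Hspa13 and Hspa4l stood at -0.36 and -0.25, and the call of Hspa4l was lost on median-scaled TPM (-0.09, adjusted p = 0.39). Hspa1l, a neighbour of Hspa1a and Hspa1b, reached at most 0.683 TPM and was not tested.

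Of 10 tested cytosolic J-domain genes, 1 rose and 6 fell on deposited TPM, and 3 rose and 5 fell on median-scaled TPM. On deposited TPM Dnajb4 and Dnajc2 both stood at -0.49, Dnaja2 at -0.40 and Dnajc7 at -0.39. Of 14 genes of HSP90 and its co-chaperones, 11 fell and none rose on deposited TPM (45.3% of all genes lower), and 8 fell and 1 rose on median-scaled TPM (28.2% of all genes lower). Ahsa1, which encodes the activator of the HSP90 ATPase, had 134, 133 and 136 TPM in M2 and 190.2, 188 and 204 TPM in M0. It was thus lower in all M2 libraries, by 0.53 on the log2 scale (log2 fold change -0.53, adjusted p = 3.0e-06, limma-trend) and by 0.35 after median scaling (-0.35, adjusted p = 2.8e-04). Chordc1, another HSP90 co-chaperone, had 26.4 ± 1.54 TPM in M2 and 40.8 ± 4.21 TPM in M0 (log2 fold change -0.61). Ahsa2 stood at -0.46, and Ptges3, the p23 co-chaperone, at -0.43.

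Of 8 tested HSP70 exchange factors and co-chaperones, 1 rose and 3 fell. Stub1, the ubiquitin ligase CHIP that marks HSP70 clients for degradation, had 103 ± 3.62 TPM in M2 and 83.5 ± 9.89 TPM in M0 (log2 fold change 0.30, adjusted p = 0.0065, limma-trend). Bag2 stood at -0.54, Bag1 at -0.31 and Hspbp1 at -0.30. The call of Hspbp1 was lost on median-scaled TPM (-0.13, adjusted p = 0.16, limma-trend), where 2 genes of the list were higher and 2 lower. Of 9 small heat shock protein genes 3 were tested and 2 fell, Hspb6 (-0.42) and Hspb11 (-0.41). The call of Hspb11 was lost on median-scaled TPM (-0.25, adjusted p = 0.16, limma-trend), and 1 gene of the list was lower without M0 replicate 2. Hspb3 was listed at 0 in every library.

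Of 14 genes of the cytosolic chaperonin and prefoldin, which fold actin and tubulin, 1 rose and 10 fell on deposited TPM, and 2 rose and 10 fell on median-scaled TPM. Pfdn4, a prefoldin subunit, had 8.81 ± 1.24 TPM in M2 and 16.7 ± 0.684 TPM in M0 (log2 fold change -0.86, adjusted p = 1.6e-05, limma-trend). Cct6a stood at -0.57, Vbp1 at -0.52 and Cct2 at -0.48. Among 15 further mitochondrial chaperones and proteases 6 fell and none rose on deposited TPM, and 5 fell and 1 rose on median-scaled TPM. Hspa9, the HSP70 of the mitochondrial matrix, had 107 ± 3.03 TPM in M2 and 148 ± 13.1 TPM in M0 (log2 fold change -0.47, adjusted p = 7.7e-05, limma-trend). The protease gene Htra2 stood at -0.55, the J-domain gene Dnaja3 at -0.41 and Afg3l2, a subunit of an inner-membrane protease, at -0.37.

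Of the heat shock factors and HSF-binding proteins 4 of 6 were tested, and 1 rose and 2 fell. Hsf1 had 15.3, 16.9 and 15.5 TPM in M2 and 20.6, 18.1 and 18.7 TPM in M0. Hsf2, which encodes a second heat shock factor, had 5.89, 5.49 and 5.80 TPM in M2 and 10.6, 10.9 and 9.33 TPM in M0. Both were lower in every M2 library than in any M0 library, Hsf2 by more. The log2 fold change was -0.74 for Hsf2 (adjusted p = 1.4e-05, limma-trend; -0.59 on median-scaled TPM) and -0.25 for Hsf1 (adjusted p = 0.0087), whose call was lost on median-scaled TPM (-0.09, adjusted p = 0.32).

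Of 10 other heat-inducible genes, 2 rose and 5 fell on deposited TPM, and 3 rose and 4 fell on median-scaled TPM. Hmox1, which encodes the haem-degrading enzyme induced by oxidants and haem as well as heat, had 288 ± 6.60 TPM in M2 and 558 ± 15.4 TPM in M0 (log2 fold change -0.95, adjusted p = 1.1e-08, limma-trend). Sqstm1, the autophagy receptor p62, stood at -0.57, Zfand2a, an arsenite-inducible gene, at -0.56 and Cacybp at -0.51. Across the lists 6 genes rose on deposited TPM, and they are named after their values were seen. They were Dnajb5 (log2 fold change 0.30), Stub1 (0.30), Pfdn6 (0.22), Hsf4 (0.34), Ubb (0.28) and Ier5 (0.23). The calls of Pfdn6 and Hsf4 were lost without M0 replicate 2 (adjusted p = 0.085 and 0.091, limma-trend), and the libraries of both overlapped between the groups. Ubb, a polyubiquitin gene, had 315 ± 3.98 TPM in M2 and 260.0 ± 15.7 TPM in M0.

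The chaperones of the endoplasmic reticulum, which are controlled by other factors than the cytosolic set, are given for contrast. Of 17 tested, 8 rose and 1 fell on deposited TPM (median log2 fold change 0.12), where 17.7% of all genes were higher. On median-scaled TPM 13 rose and none fell (median 0.30), where 28.8% of all genes were higher. The gene that fell on deposited TPM was Hyou1 (-0.20), at -0.03 (adjusted p = 0.52) on median-scaled TPM. Hspa5, the HSP70 of that compartment, had 742, 747 and 763 TPM in M2 and 669, 722 and 678 TPM in M0, so that all its M2 libraries were higher. Its log2 fold change on deposited TPM was 0.12 (adjusted p = 0.017, limma-trend), against -0.26 for Hspa8 in the cytosol and -0.47 for Hspa9 in the mitochondrion. On median-scaled TPM the values were 0.30 for Hspa5, -0.09 for Hspa8, which did not pass there, and -0.30 for Hspa9. Pdia4, a protein disulfide isomerase, rose most of the list, with 490.0 ± 5.55 TPM in M2 and 94.7 ± 3.44 TPM in M0 (log2 fold change 2.36). Sil1, an exchange factor of Hspa5, stood at 0.98, Sdf2l1 at 0.80 and the lectin chaperone gene Calr at 0.34. Whether this list and the 10 genes differ as groups was not tested.

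**Figure D4:**
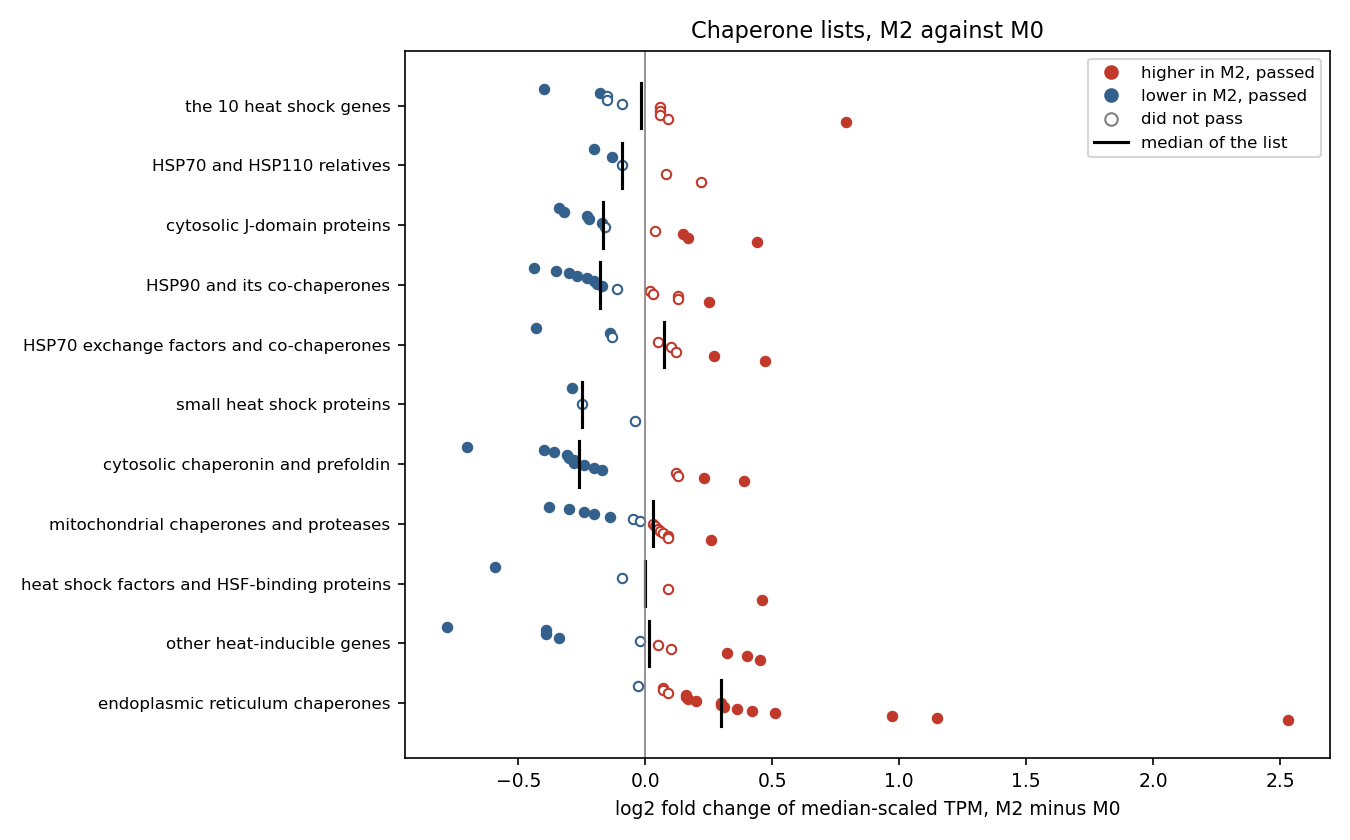
Log2 fold change of median-scaled TPM (M2 minus M0) of each tested gene in the 10 heat shock genes, 9 lists of related genes and the endoplasmic reticulum chaperones; red is higher and blue lower in M2, filled circles passed at an adjusted p under 0.05, and black bars are list medians. The list of the cytosolic chaperonin and prefoldin has a median of -0.26 and that of the endoplasmic reticulum chaperones one of 0.30.

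Immediate early genes, some of which respond within minutes to handling of cells, were also counted beside the heat shock genes. Of 13 tested immediate early genes, 7 rose and 4 fell, beside 17.7% of all genes higher and 45.3% lower. Fos had 9.62 ± 0.818 TPM in M2 and 40.6 ± 0.962 TPM in M0 (log2 fold change -1.97), whereas Jund stood at 1.36, Btg2 at 1.28 and Atf3 at 1.22. Their part in the values of the heat shock genes was not tested.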

How the data were processed

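Polyadenylated RNA of 6 BMDM libraries (3 M2, 3 M0) had been sequenced. Groups and replicate numbers come from the sample titles. Per the submitters' processing notes, the tools were STAR, HOMER 4.11.1, bcl2fastq and DESeq2, and the build mm10. Per the file headers, reads were counted in exons of RefSeq genes, with 1 transcript per gene. The authors deposited TPM for each gene in each library. Their comparison of M2 with M0 was deposited as log2 values for each library with the log2 fold change, its p-value and its adjusted p-value. Its sign was checked against the means of the libraries and runs M2 minus M0. Commas had shifted 3 rows, which were realigned.

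TPM of the genes summed to 542749 to 543854 in M2 and 548160 to 553186 in M0 libraries. TPM times transcript length gave whole reads, within 0.1 read, for 99.8% to 99.9% of values, and the recovered reads were 89.8% to 90.9% of the tags in the headers. Groups were compared by limma-trend in R 4.3.3 (limma 3.58.1, with robust moderation, two-sided) on log2(TPM + 1), a pseudocount of 1, and took in genes with at least 1 TPM in at least 3 libraries, adjusted over the 11235 genes tested. A fold change is thus on the log2(TPM + 1) scale, which understates the change of low genes. Ratios between members were tested by exact permutation over libraries. In simulated data with 11138 genes tested, the test recovered 50% of genes changed 1.25-fold, 83.7% at 1.5-fold and 100% at 2-fold and 4-fold. The simulation changed 49 or 50 of the tested genes at each fold, with the same dispersion for every gene. It had no library set apart and no shift of all genes between groups. These shares are therefore not the recovery of the real comparison.

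Alternatives were median scaling, pseudocounts of 0.1 and 5, no filter, at least 50 reads, limma-voom on recovered reads (library sizes corrected by a trimmed mean of log ratios), limma-trend on the authors' log2-scale values, the replicate number as a block and each library left out, and, added after seeing the data, each library left out after median scaling. The members and lists were chosen with earlier results of these data known. Named genes were all members, Hspa5, Hsp90ab1, Hspa9, Hsf1, Hsf2 and Hmox1, in each list the 4 largest changes among called genes without overlap of the groups, and the 3 nearest profiles to Hspa1a and to Hspd1. Promoter sequences are those of RefSeq (GRCm38.p6), matched by symbol and start site, and exon numbers and transcript sequences are those of GENCODE M21. Python 3.11.15, numpy 2.4.6, pandas 2.3.3, scipy 1.17.1 and matplotlib 3.10.9 were used.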

Additional observations from a re-analysis of the deposited data

How the results depend on the processing

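Over 14 alternatives, the values of the 10 genes kept direction and side of the threshold in 121 of their comparisons, lost a call in 5, gained one in 2 and turned direction in 12. The turned values were those of genes that had not passed. Dnajb1, Dnaja1 and Bag3 stood at 0.06 and Hspe1 at 0.09 under both median scaling and limma-voom, and at 0.06 and 0.08 with the authors' log2-scale values. Hsp90ab1, which had passed at -0.14, stood at 0.03 under all 3. The other 57 named genes kept both in 750 comparisons, lost a call in 45 and turned in 3, those of Hsp90ab1. Median scaling, limma-voom and the authors' values called 3234, 3272 and 3318 of all genes higher and 3163, 3297 and 3323 lower, in place of 1983 and 5088. Under these 3 scalings 13 genes of the 9 lists and 13 endoplasmic reticulum chaperones were higher, and 0 endoplasmic reticulum chaperones lower. Median scaling left 2 members lower, Hsp90aa1 and Hspd1. Leaving out 1 library gave 5 to 7 members lower on deposited TPM, with 7 without M0 replicate 2, when Dnajb1 and Bag3 also passed. After median scaling it gave 1 to 4, with 4 without M0 replicate 2 (Hspa1a and Hspa8 also passed), 3 without M2 replicate 3 (Hspa1a also passed), 3 without M0 replicate 1 (Hspa1b also passed) and 1 without M2 replicate 1 (Hspd1 did not pass, adjusted p = 0.052, limma-trend). Of the endoplasmic reticulum chaperones 1 to 3 were then lower on deposited TPM, 3 without M0 replicate 2. With no filter 4 genes of the 9 lists were higher, as also without M2 replicate 2 or 3. Deviations of libraries with the same replicate number had correlations of 0.00, -0.00 and -0.04 over genes. These cannot decide whether the numbers pair the libraries, because M2 libraries differed little beyond counting (chi-square per degree of freedom 1.52 to 1.70). With the replicate number as a block, 1 member was higher and 5 lower, as without it. Hsph1 stayed between 0.57 and 0.80 in the 14 alternatives, and reached 0.84 without M0 replicate 2 after median scaling. The causes of these differences between scalings were not tested. The lowest count of a member was 700 reads in a library, and the coefficient of variation that counting alone gives was 0.819% to 3.67% over members and groups.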
